A study of Mus musculus with 12 samples.

Results

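Neurog1, Neurog2, Neurod1, Neurod2, Neurod4 and Neurod6 encode proneural basic helix-loop-helix (bHLH) transcription factors that act in the making of glutamatergic neurons of the cerebral cortex. The rows of the deposited count tables whose Ensembl identifiers carry these 6 symbols were taken, 6 of 48709 gene identifiers, and all 6 passed the filter on low counts, as did 16511 genes in all. RNA came from the cortex of C57BL/6J mouse embryos at the embryonic stage E15.5. There were 12 libraries: 4 from controls, 4 from a BAF155 conditional knockout (cKO) and 4 labelled Pax6 cKO. Smarcc1 encodes BAF155, which belongs to the core of the chromatin remodelling complex BAF, and Pax6 encodes a paired-box transcription factor of cortical radial glia, the neural stem cells. The 4 libraries labelled Pax6 cKO are called the Pax6-labelled group here. The sources used here do not give the Cre line that drives each deletion, the alleles, the genotype of the controls or whether each library is a separate embryo, so p-values measure only a spread between libraries that may be technical. The study named cKO against control as its comparisons, and the BAF155 cKO was also compared directly with the Pax6-labelled group.

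Proneural bHLH proteins pair with widely expressed E proteins (Tcf3, Tcf4, Tcf12) and bind E-boxes, short DNA motifs of the form CANNTG. In the mouse cortex Neurog2, with Neurog1, is made in cycling progenitors, where it starts neuronal differentiation, and Pax6 is a known activator of Neurog2. Neurog2 in turn activates Neurod1, Neurod4 and Eomes, the last a T-box factor of intermediate (basal) progenitors. Neurod1 is found mainly in intermediate progenitors and newborn neurons, and Neurod2 and Neurod6 stay on in postmitotic glutamatergic neurons. Id proteins and several Hes proteins, such as Hes1, oppose the proneural factors, Id proteins by taking up E proteins and these Hes proteins as repressors.

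Depth was 15.2 to 32.05 M counted reads. The markers of cortex Emx1, Tbr1 and Bcl11b were present in every library, Emx1 at 15.0 to 61.4 counts per M reads (CPM). Smarcc1 was lower than control in the BAF155 cKO (log2 fold change −1.25) and, by less, in the Pax6-labelled group (−0.71, edgeR adjusted p = 0.00128). The direct Smarcc1 difference between these groups was −0.55 (edgeR adjusted p = 0.0286). It did not pass the test in 9 other settings (adjusted p from 0.0536 to 0.175). Pax6 went against its label. Its mean was 110.2 ± 19.1 CPM in control and 314 ± 40.3 CPM in the BAF155 cKO. Pax6 was highest of all in the Pax6-labelled group, at 389 ± 8.74 CPM (mean ± SD, n = 4 each). Counts over a whole gene may include reads outside a deleted part. Whether they do so for Pax6, which was also higher in the BAF155 cKO than in control, was not tested. By Xist, all BAF155 cKO libraries were female, all libraries labelled Pax6 cKO male, control replicates 1 and 2 male and 3 and 4 female. By the names of the deposited tables the controls stood alone on sequencing lane 8, the Pax6-labelled group and BAF155 cKO replicates 1 and 2 on lane 1, and BAF155 cKO replicates 3 and 4 on lane 3, so lane and group cannot be told apart for the controls. BAF155 cKO replicates 1 and 4 lay close to each other (chi-square per gene 13.2), as did 2 and 3 (9.80), and the group's other pairs lay farther apart. Replicate 2 lay nearer to control replicate 4 (19.5) than to replicate 1 (45.3) or 4 (41.6) of its group. Replicate 3 lay nearer to control replicate 2 (16.0) than to replicate 1 (27.0) or 4 (19.0) of its group. Replicates 1 and 4 lay nearer to Pax6-labelled replicate 1 (25.6 and 15.1) than to replicate 3 of their group (27.0 and 19.0). The summed level of liver markers was 0.239 to 0.805 CPM in control, 1.63 to 200.002 CPM in the BAF155 cKO and 0.480 to 1.24 CPM in the Pax6-labelled group, and that of choroid plexus markers was 17.0 to 35.7, 7.55 to 20.6 and 25.7 to 334 CPM in the same order. That of thalamus and hypothalamus markers was 27.3 to 50.5 CPM in control, 53.8 to 73.5 CPM in the BAF155 cKO, where 3 of 6 rose (Sim1, Lhx9 and Otp) and 1 fell, and 32.1 to 38.1 CPM in the Pax6-labelled group, where Sim1 rose and 1 fell. That of erythroid markers was 95.0 to 118, 117 to 214 and 143 to 156 CPM in the same order. Their part in the results below was not tested. In bulk tissue, fewer cells of a type and less RNA per cell cannot be told apart.

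The 6 genes lie on 6 chromosomes (mm10, GENCODE M21). Neurog1 (ENSMUSG00000048904) spans chr13:56250478-56252163 on the minus strand and has a single exon block of 1686 bp. Neurog2 (ENSMUSG00000027967) spans chr3:127633135-127635631 on the plus strand, with 2227 bp of exon. Neurod1 (ENSMUSG00000034701) spans chr2:79452521-79456751 on the minus strand, with 2729 bp of exon, of which Cerkl overlaps 201 bp and the noncoding gene Gm26755 154 bp. Cerkl lies on the same strand as Neurod1 and Gm26755 on the other, which the library kit does not mark. Reads of neither stretch could be assigned by strand, and no other gene's exons overlap the other members. Neurod2 (ENSMUSG00000038255) spans chr11:98325415-98329648, Neurod4 (ENSMUSG00000048015) chr10:130268152-130280240 and Neurod6 (ENSMUSG00000037984) chr6:55677822-55681263, all on the minus strand.

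The 250 bases upstream of the RefSeq start (GRCm38.p6) were searched on both strands for CANNTG, which is its own reverse complement and stood in 66.2% of 32851 such windows. The windows are printed for the members with the largest decreases in the BAF155 cKO, Neurog2 (chr3:127632886-127633135, plus strand) and Neurod4 (chr10:130280255-130280504, minus strand), and the members with the smallest, Neurod2 (chr11:98329646-98329895, minus strand) and Neurod6 (chr6:55681264-55681513, minus strand). Capitals mark CANNTG.
Neurog2: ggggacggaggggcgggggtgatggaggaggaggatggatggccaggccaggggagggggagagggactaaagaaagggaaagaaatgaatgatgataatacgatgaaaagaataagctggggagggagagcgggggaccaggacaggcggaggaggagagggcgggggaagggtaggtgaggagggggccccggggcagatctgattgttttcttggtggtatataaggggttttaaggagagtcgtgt
Neurod4: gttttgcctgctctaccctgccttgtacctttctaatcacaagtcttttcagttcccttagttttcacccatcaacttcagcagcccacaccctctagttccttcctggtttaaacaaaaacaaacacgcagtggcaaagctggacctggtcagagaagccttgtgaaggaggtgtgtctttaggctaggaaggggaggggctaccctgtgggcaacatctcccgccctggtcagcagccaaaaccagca
Neurod2: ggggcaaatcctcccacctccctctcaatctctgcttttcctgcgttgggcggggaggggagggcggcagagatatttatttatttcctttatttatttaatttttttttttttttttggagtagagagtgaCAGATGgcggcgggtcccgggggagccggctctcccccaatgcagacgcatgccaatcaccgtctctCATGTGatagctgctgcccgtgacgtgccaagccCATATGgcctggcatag
Neurod6: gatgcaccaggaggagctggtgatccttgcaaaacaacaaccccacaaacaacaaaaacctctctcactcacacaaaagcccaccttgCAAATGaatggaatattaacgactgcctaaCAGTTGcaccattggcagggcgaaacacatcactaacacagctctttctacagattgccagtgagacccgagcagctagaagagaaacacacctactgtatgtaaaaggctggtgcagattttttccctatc
The windows of Neurog1, Neurog2 and Neurod4 held no match. Neurod1 held 1, CATATG at 242 bases upstream. Neurod2 held 3: CAGATG at 118, CATGTG at 51 and CATATG at 17 bases upstream. Neurod6 held 2: CAAATG at 162 and CAGTTG at 132 bases upstream. CAGATG, or its reverse complement CATCTG, stood in 14.4% of all windows and CATATG in 3.46%. These matches describe the letters of the windows and are not binding sites.

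All 6 genes fell in the BAF155 cKO and all 6 fell in the Pax6-labelled group. Neurod4 fell to 10.5% and 4.83% of the control mean, Neurog2 to 25.9% and 12.1%, and Neurod6 least, to 65.2% and 65.1%. A gene was called at an adjusted p under 0.05 in edgeR's quasi-likelihood F-test over all tested genes. Against control, 13.6% of genes were called in the BAF155 cKO (6.04% higher, 7.56% lower) and 35.5% in the Pax6-labelled group (16.6% higher, 18.9% lower). In the BAF155 cKO the 4 libraries lay below the 4 controls for 5 of 6 members, against 7.95% of all genes, and in the Pax6-labelled group for 6 of 6, against 18.3%. The median log2 fold change of the members was −1.42 and −2.10, and that of all tested genes 0.00787 and 0.0234. Both comparisons use the same controls.

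**Figure D1:**
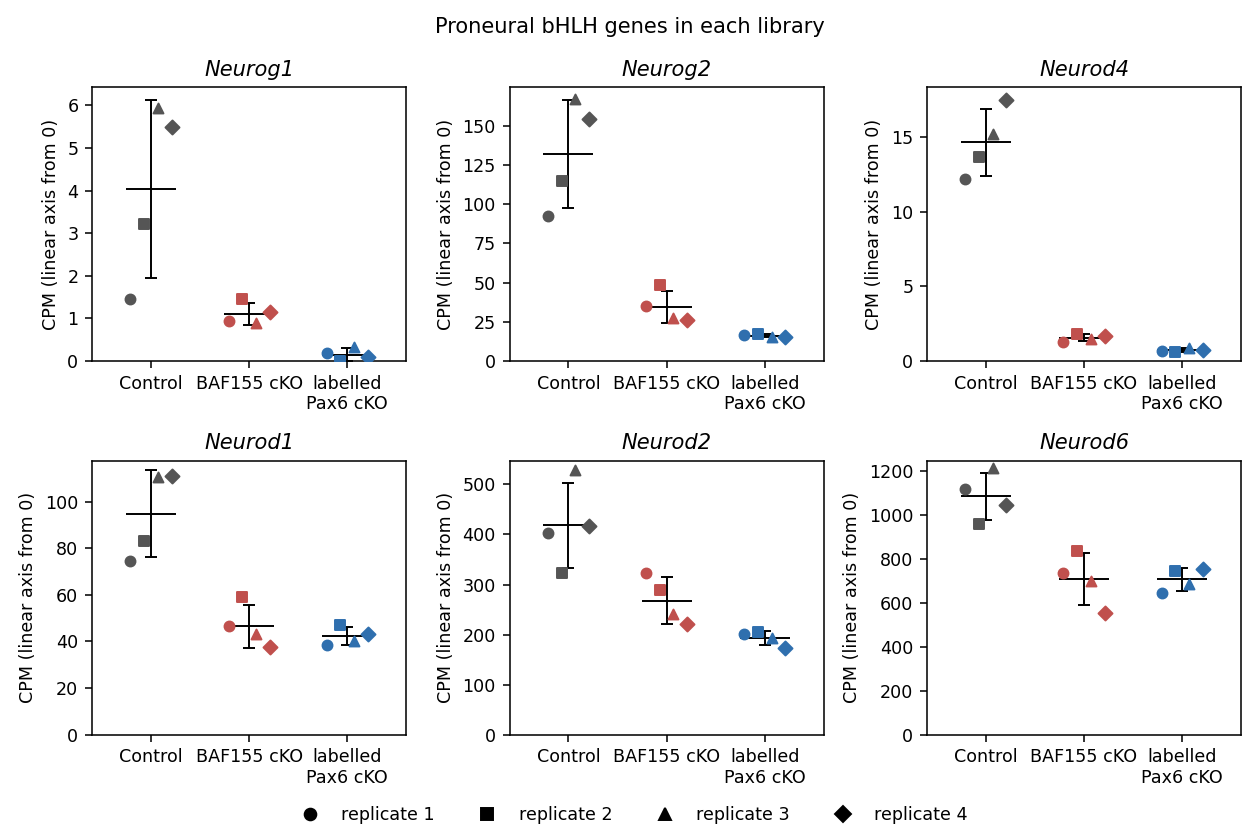
CPM of each gene in each library on linear axes from 0, with a panel per gene, the replicate number as the marker and lines at the mean ± SD (n = 4). Each library labelled Pax6 cKO lies below each control in all 6 panels, and control replicate 1 of Neurog1 (1.45 CPM) lies level with BAF155 cKO replicate 2 (1.46 CPM).

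The neurogenins, which start the cascade in progenitors, were lower than control in the BAF155 cKO and in the Pax6-labelled group. Neurog2 stood at 92.4, 115, 167 and 154 CPM in control replicates 1 to 4, at 34.9, 48.4, 27.3 and 26.2 CPM in the BAF155 cKO and at 16.5, 17.1, 15.45 and 15.0 CPM in the Pax6-labelled group. The 3 groups did not overlap. Female control replicates 3 and 4 lay above male 1 and 2, and the Pax6-labelled group lay close together (16.0 ± 0.959 CPM, SD, n = 4). The log2 fold change of Neurog2 against control in the BAF155 cKO was −1.94 (SE 0.20, adjusted p = 1.29e-05) and that in the Pax6-labelled group −3.04 (SE 0.21, adjusted p = 1.08e-07). Against the controls of the same sex alone these were −2.22 and −2.69, both called.

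Neurog1, the paralog that is more restricted in the cortex, was a low-count gene. It had 44, 68, 123 and 115 reads in control replicates 1 to 4, 24, 41, 14 and 18 in the BAF155 cKO, and 5, 0, 11 and 2 in the Pax6-labelled group. As CPM these were 1.45, 3.22, 5.95 and 5.49 in control and 0.932, 1.46, 0.888 and 1.15 in the BAF155 cKO, where control replicate 1 lay just below BAF155 cKO replicate 2. Every value of the Pax6-labelled group was at most 0.335 CPM, and the count of 0 in replicate 2 allows up to 0.122 CPM. The log2 fold change of Neurog1 was −1.82 with an SE of 0.43 in the BAF155 cKO (adjusted p = 0.0123) and −4.57 with an SE of 0.54 in the Pax6-labelled group (adjusted p = 3.59e-05). The first was not called with the BAF155 cKO libraries of lane 1 alone (adjusted p = 0.122), those of lane 3 alone (0.0528), replicates 2 and 3 alone (0.169), limma-voom (0.0557) or no filter on low counts (0.0520). Against same-sex controls the values were −2.35 and −3.76, both called.

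Neurod4, a factor that Neurog2 switches on in differentiating progenitors, had the lowest log2 fold change of the 6 in the BAF155 cKO. Its level was 12.2, 13.6, 15.2 and 17.5 CPM in control replicates 1 to 4, 1.24, 1.78, 1.46 and 1.66 CPM in the BAF155 cKO and 0.636, 0.609, 0.884 and 0.699 CPM in the Pax6-labelled group. No group overlapped another, and no control came near a library of the other groups. These values rest on 288 to 369 reads per control, 23 to 50 per BAF155 cKO library and 15 to 29 per library labelled Pax6 cKO. The log2 fold change of Neurod4 was −3.25 with an SE of 0.17 in the BAF155 cKO (adjusted p = 6.36e-09) and −4.35 with an SE of 0.18 in the Pax6-labelled group (adjusted p = 3.82e-10).

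Neurod1, which carries intermediate progenitors towards neurons, fell in the BAF155 cKO and in the Pax6-labelled group. It was measured at 74.7, 83.0, 110.4 and 111.2 CPM in control replicates 1 to 4, at 46.5, 59.2, 43.3 and 37.4 CPM in the BAF155 cKO and at 38.5, 47.2, 40.0 and 43.4 CPM in the Pax6-labelled group. Every library of these groups lay below every control, and the BAF155 cKO and the Pax6-labelled group overlapped each other. The log2 fold change of Neurod1 was −1.02 with an SE of 0.15 in the BAF155 cKO (adjusted p = 0.00034) and −1.16 with an SE of 0.15 in the Pax6-labelled group (adjusted p = 6.26e-05).

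The factors of postmitotic neurons also fell. Neurod2 was measured at 404, 323, 529 and 417 CPM in control replicates 1 to 4, at 322, 289, 241 and 220.5 CPM in the BAF155 cKO and at 201, 205, 194 and 173 CPM in the Pax6-labelled group. The groups did not overlap, though control replicate 2 lay only just above BAF155 cKO replicate 1. The log2 fold change of Neurod2 was −0.64 with an SE of 0.14 in the BAF155 cKO (adjusted p = 0.00823) and −1.11 with an SE of 0.14 in the Pax6-labelled group (adjusted p = 6.51e-05). Neurod6, the most abundant of the 6, was measured at 1119, 959.6, 1213 and 1047 CPM in control, at 736, 838, 702 and 555 CPM in the BAF155 cKO and at 644, 743, 685 and 754 CPM in the Pax6-labelled group. The BAF155 cKO and the Pax6-labelled group lay below all controls and overlapped each other. The log2 fold change of Neurod6 was −0.62 with an SE of 0.12 in the BAF155 cKO (adjusted p = 0.00372) and −0.62 with an SE of 0.12 in the Pax6-labelled group (adjusted p = 0.00179). With the BAF155 cKO libraries of lane 1 alone, Neurod2 (−0.44, adjusted p = 0.134) and Neurod6 (−0.45, adjusted p = 0.0608) were not called, which with Neurog1 left 3 of 6 members called. Leaving out any 1 library kept all 6 called in both comparisons with control.

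Among the controls, the lowest female lay above the highest male for Neurog1, Neurog2, Neurod1, Neurod2 and Neurod4, but with 2 of each sex this was not tested. The male controls also had a larger mitochondrial share of reads (2.27% and 2.18%) than the female controls (1.21% and 1.38%). Sex and whatever else sets these pairs apart cannot be told apart here, also where sex is a covariate or same-sex controls are used. For Neurod6 the sexes overlapped, at 959.6 to 1119 CPM in the males and 1047 to 1213 CPM in the females. With same-sex controls alone, Neurod1 had a log2 fold change of −1.25 in the BAF155 cKO and −0.90 in the Pax6-labelled group, Neurod2 −0.82 and −0.91, Neurod4 −3.41 and −4.16, and Neurod6 −0.68 and −0.55. All of these were called.

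**Figure D2:**
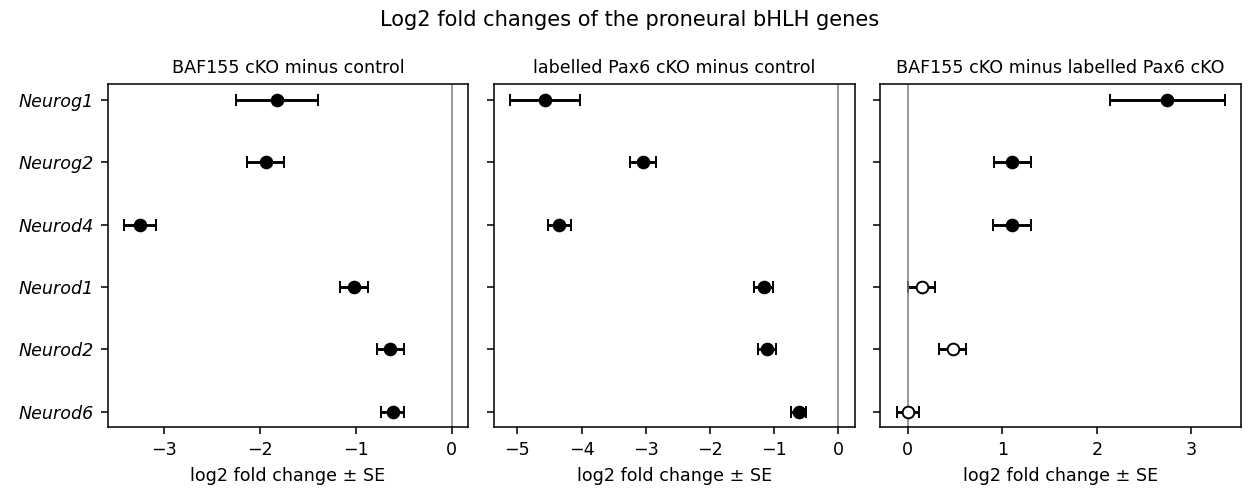
Log2 fold changes ± SE of the 6 genes in the 3 comparisons, with filled points for genes called at an adjusted p under 0.05. All 6 points are filled and below 0 against control, and 3 of 6 are filled and above 0 in the direct comparison, where Neurod6 sits at 0.00256.

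The direct comparison set the mean of the BAF155 cKO against that of the Pax6-labelled group, in the fit of all 12 libraries. Neurog1, Neurog2 and Neurod4 were higher in the BAF155 cKO, 3 of 6 members, where 4.31% of all genes were called, 2.3% higher and 2.01% lower. The log2 difference was 2.75 for Neurog1 (SE 0.61, adjusted p = 0.0192), 1.11 for Neurog2 (SE 0.20, adjusted p = 0.00608) and 1.10 for Neurod4 (SE 0.20, adjusted p = 0.00695). For these genes each BAF155 cKO library lay above each library labelled Pax6 cKO. Neurod2 did not overlap either, at a difference of 0.47 that was not called (SE 0.14, adjusted p = 0.0664). It was called by DESeq2 (0.48, adjusted p = 0.0210) and by edgeR with only the 8 libraries compared (0.49, adjusted p = 0.0257). Groups did not overlap, with the BAF155 cKO higher, for 7.5% of all genes.

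Neurod1 differed by 0.14 (SE 0.15, adjusted p = 0.614) and Neurod6 by 0.00256 (SE 0.12, adjusted p = 0.993). An approximate 95% interval of the Neurod6 difference ran from −0.23 to 0.24 on the log2 scale. It was built from the SE with a normal distribution, which makes it slightly narrow for so few libraries. The BAF155 cKO and the Pax6-labelled group were of opposite sex, so sex and group cannot be told apart here without the controls. With sex as a covariate, which takes the sex difference from the 4 controls, no member was called: Neurog1 differed by 1.42 (adjusted p = 0.75), Neurog2 by 0.48 (adjusted p = 0.785) and Neurod4 by 0.76 (adjusted p = 0.582). In that fit edgeR called 13 genes of all those tested, and 2 members had an unadjusted p under 0.05. On lane 1, which held BAF155 cKO replicates 1 and 2 and all libraries labelled Pax6 cKO, the differences of Neurog2 (1.39, adjusted p = 0.0037), Neurod4 (1.10, adjusted p = 0.0327) and Neurod2 (0.67, adjusted p = 0.0292) were called and that of Neurog1 (2.86, adjusted p = 0.0574) was not. With the BAF155 cKO libraries of lane 3 alone no member was called: Neurog1 differed by 2.61 (adjusted p = 0.177), Neurog2 by 0.75 (adjusted p = 0.0833) and Neurod4 by 1.13 (adjusted p = 0.0525). Without a filter on low counts the calls of Neurog1 (adjusted p = 0.0846) and Neurog2 (adjusted p = 0.0592) ended. The call of Neurog1 was lost without BAF155 cKO replicate 2 or without replicate 2 or 4 labelled Pax6 cKO (adjusted p from 0.0526 to 0.0724), and Neurod2 was called without BAF155 cKO replicate 4 (adjusted p = 0.0365).

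Levels of different genes were compared per length, as CPM per kb of exon. In control the order was Neurod6 at 505 ± 50.0, Neurod2 at 133 ± 26.9, Neurog2 at 59.4 ± 15.51, Neurod1 at 34.7 ± 6.88, Neurod4 at 4.38 ± 0.678 and Neurog1 at 2.39 ± 1.24 CPM per kb (SD, n = 4 each). Each neighbour in that order was separated from the next in range over the 4 controls. The nearest were Neurod1, at up to 40.7 CPM per kb, and Neurog2, at no less than 41.5, and Neurog1, at up to 3.53, and Neurod4, at no less than 3.65.

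Within the BAF155 cKO, Neurog2 (15.4 ± 4.59 CPM per kb) and Neurod1 (17.1 ± 3.37) overlapped in level. In the Pax6-labelled group, Neurod1 (15.496 ± 1.42 CPM per kb) lay above Neurog2 (7.19 ± 0.430) in range. Neurog1 lay above Neurod4 in mean CPM per kb in the BAF155 cKO (0.657 ± 0.156 against 0.459 ± 0.0710), with ranges that overlapped. In the Pax6-labelled group, Neurog1 (0.0889 ± 0.0849 CPM per kb) and Neurod4 (0.211 ± 0.0370) also overlapped, and both rest on few reads. Neurod6 and Neurod2 kept the top places in each group. The annotation behind the authors' counts is unknown here, so the lengths are those of GENCODE M21.

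Ratios of read counts within a library do not depend on how libraries are scaled. They are not per length, so only differences between groups are read from them. They were taken as log2 of counts plus 0.5 and compared by exact two-sided permutation tests over libraries, 15 in all, for which 4 against 4 allows no p under 0.0286 and no adjusted p under 0.0357. The ratio of Neurod1 to Neurog2 was −0.46 ± 0.12 in control, 0.47 ± 0.16 in the BAF155 cKO and 1.40 ± 0.14 in the Pax6-labelled group (log2, SD, n = 4). The 3 groups stood in steps without overlap: the difference from control was 0.93 and 1.86, and these groups differed from each other by −0.93, BAF155 cKO minus labelled Pax6 cKO. The ratio of Neurod6 to Neurog2 stood in the same order, at 3.07 ± 0.37, 4.40 ± 0.23 and 5.46 ± 0.15 on the log2 scale. Each of these 6 differences had the smallest p the test allows.

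The ratio of Neurod4 to Neurog2 was −3.15 ± 0.22 in control, −4.42 ± 0.41 in the BAF155 cKO and −4.48 ± 0.30 in the Pax6-labelled group (log2, SD, n = 4). The BAF155 cKO and the Pax6-labelled group lay below control without overlap, by −1.28 and −1.33, with the exact p at its smallest value. They overlapped each other (difference 0.05, exact p = 0.8). Relative to Neurog2, Neurod4 was lower in these groups than in control.

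**Figure D3:**
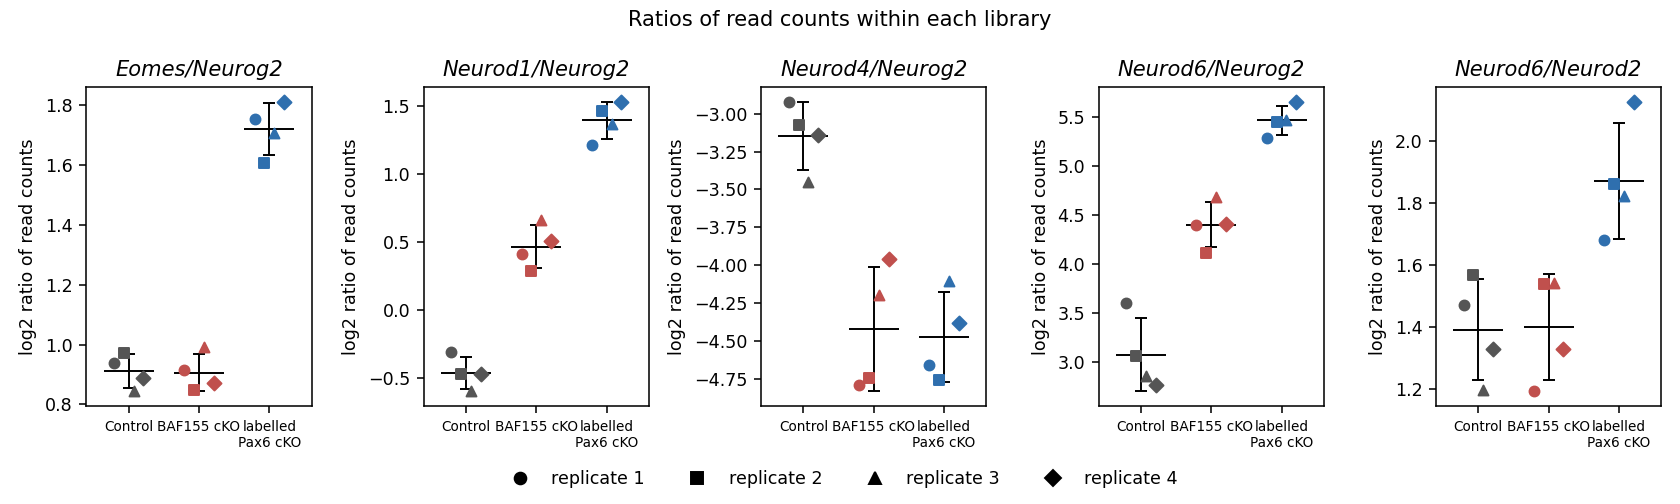
Log2 ratio of read counts of 2 genes in each library, with a panel per ratio, the replicate number as the marker and lines at the mean ± SD (n = 4). The ratios of Neurod1 and Neurod6 to Neurog2 stand in 3 separate steps, while those of Eomes to Neurog2 and Neurod6 to Neurod2 overlap between control and the BAF155 cKO.

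The ratio of Eomes to Neurog2 was 0.91 ± 0.0562 in control and 0.91 ± 0.0629 in the BAF155 cKO (log2, SD, n = 4), a difference of −0.00489 with an exact p of 0.943. In the Pax6-labelled group it was 1.72 ± 0.0866, above every library of the other groups. Eomes itself was measured at 247 ± 56.6, 63.8 ± 17.2 and 52.7 ± 2.24 CPM in control, BAF155 cKO and the Pax6-labelled group. The ratio of Neurod6 to Neurod2 was 1.39 ± 0.16 in control and 1.40 ± 0.17 in the BAF155 cKO (difference 0.00865, exact p = 0.971), and 1.87 ± 0.19 in the Pax6-labelled group, again without overlap. Against same-sex controls alone the ratio of Neurod1 to Neurog2 differed by 1.004 in the BAF155 cKO and 1.79 in the Pax6-labelled group, and that of Neurod4 to Neurog2 by −1.13 and −1.48.

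Genes that work with, against or after the proneural factors were counted in lists. The median log2 fold change of all tested genes was near 0 in each comparison with control. Of the 3 E proteins, the partners of the members, edgeR called 0 in the BAF155 cKO, where 2 had an unadjusted p under 0.05, DESeq2 called 1 and limma-voom 0. Their median log2 fold change was −0.38, and all 3 were called lower without BAF155 cKO replicate 2 or without control replicate 1. Of the 3, 2 fell in the Pax6-labelled group, Tcf12 (−0.44, adjusted p = 0.00976) and Tcf3 (−0.48, adjusted p = 0.0341). Neither was called against same-sex controls, the call of Tcf3 also ended without control replicate 3 or 4 or without replicate 3 or 4 labelled Pax6 cKO (adjusted p from 0.0769 to 0.134), and Tcf4 had −0.34 (adjusted p = 0.0628).

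The 10 Id, Hes and Hey genes include Hes6, which is also in the list of genes downstream of the neurogenins. Of the 10, 2 rose and 4 fell in the BAF155 cKO (median −0.13). In the Pax6-labelled group 2 rose and 4 fell (median −0.23). Id1 (0.52 and 0.56) and Id3 (0.42 and 0.69) rose in both, while Id4 (−0.56 and −0.70) and Hes1 (−0.56 and −0.85) fell. In the BAF155 cKO both Id4 (adjusted p = 0.0286) and Hes1 (adjusted p = 0.0337) overlapped control. Id2 fell in the BAF155 cKO (−0.39, adjusted p = 0.0105) and had 0.08 in the Pax6-labelled group (adjusted p = 0.497), a direct difference of −0.47 (adjusted p = 0.00767). The Id2 call against control ended with same-sex controls and with the BAF155 cKO libraries of lane 1 alone (adjusted p from 0.128 to 0.162). Its direct call ended with sex as a covariate and with those lane 1 libraries alone (adjusted p from 0.0812 to 0.783). In the BAF155 cKO the calls of Id1, Id3 and Id4 each ended when 1 of several libraries was left out, for Id1 any of BAF155 cKO replicates 2 and 4 and control replicates 2 and 3. For Id3 these were BAF155 cKO replicates 1, 2 and 4 and control replicates 2, 3 and 4, and for Id4 BAF155 cKO replicates 1 and 4 and control replicates 2, 3 and 4 (adjusted p from 0.0538 to 0.12 over the 3 genes). The count of genes that fell in the BAF155 cKO was 1 without its replicate 1 or 4 or control replicate 3 or 4, and 2 without its replicate 3. Id2 stayed called without any 1 library, so where the count was 1 the call of Hes1 had ended too. In the Pax6-labelled group the count was 2 without control replicate 3 or 4 or without replicate 3 of that group. Against same-sex controls 0 rose and 2 fell in the BAF155 cKO, and 2 rose and 1 fell in the Pax6-labelled group, where the call of Id4 ended.

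Of 14 genes known to act downstream of the neurogenins, 1 rose and 5 fell in the BAF155 cKO and 1 rose and 10 fell in the Pax6-labelled group, with medians of −0.12 and −0.53. Against same-sex controls the counts were 1 and 5, and 1 and 8. Eomes fell in both (−1.95, adjusted p = 3.8e-06, and −2.23, adjusted p = 6.31e-07). The somatostatin receptor gene Sstr2 fell (−0.86 and −1.49). Dll3, a Notch ligand family gene, was the gene that rose (0.85, adjusted p = 0.000717, and 0.51, adjusted p = 0.00848).

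In the direct comparison 4 of the 14 were called, all higher in the BAF155 cKO. Nhlh1, a bHLH gene of newborn neurons, averaged 26.3 ± 10.5 CPM in control (SD, n = 4), against 31.2 ± 8.54 CPM in the BAF155 cKO and only 11.5 ± 0.733 CPM in the Pax6-labelled group. It did not pass the test in the BAF155 cKO (0.26, adjusted p = 0.454), fell in the Pax6-labelled group (−1.19, adjusted p = 0.00262) and differed by 1.45 between them (adjusted p = 0.00422). Btg2, an antiproliferative gene of neurogenic divisions, followed the same order of values (−0.03, adjusted p = 0.853; −0.62, adjusted p = 0.000397; 0.59, adjusted p = 0.00337). Neither difference was called with sex as a covariate (adjusted p of 0.785 for Nhlh1 and 0.738 for Btg2). The same held with the BAF155 cKO libraries of lane 3 alone (adjusted p of 0.0791 for Nhlh1 and 0.0507 for Btg2).

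**Figure D4:**
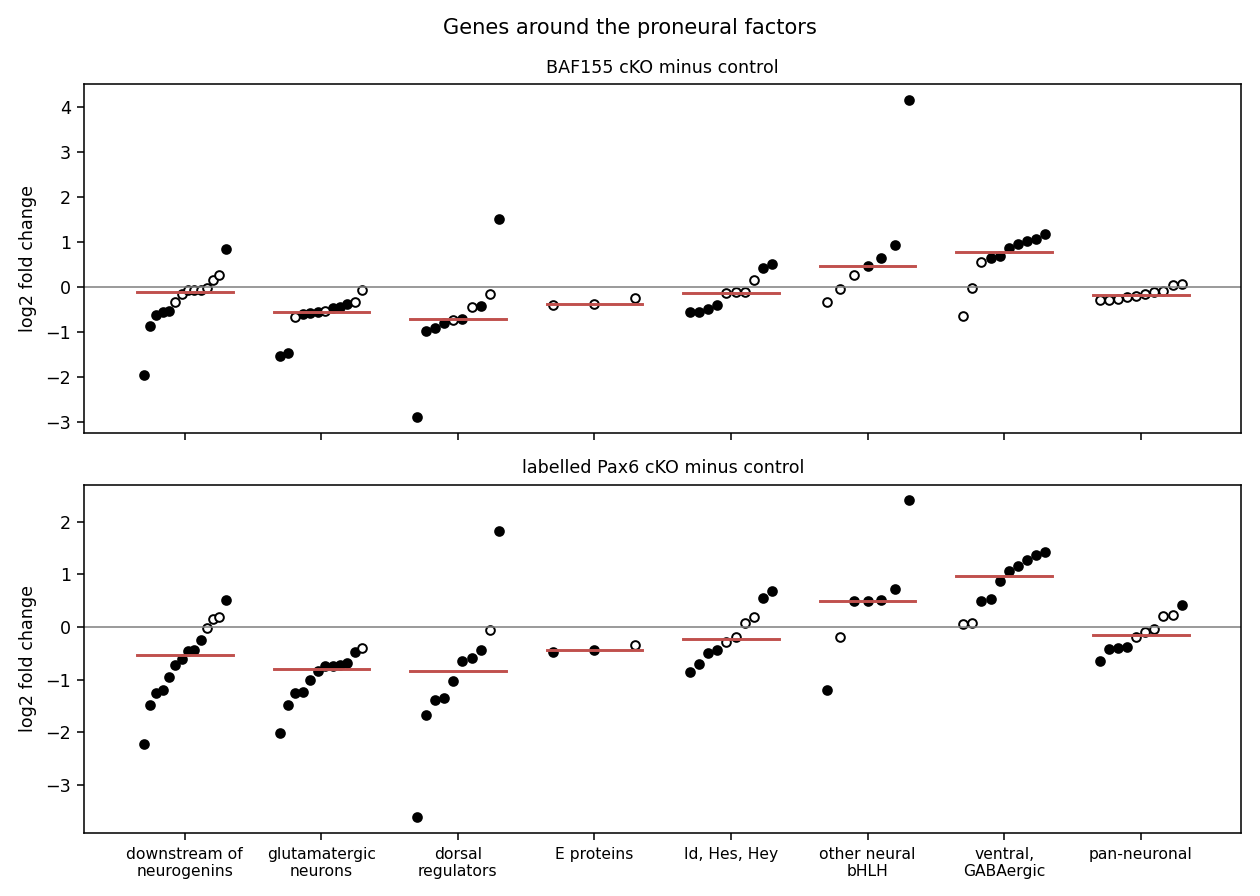
Log2 fold change of each tested gene of 8 lists against control, in order within a list, with filled points for called genes and a bar at the list's median. Most filled points of the glutamatergic list lie below 0 and those of the ventral list above 0 in both panels.

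Of 12 genes of glutamatergic neurons, 8 fell in the BAF155 cKO and 11 in the Pax6-labelled group, with medians of −0.55 and −0.80, and 10 and 10 fell against same-sex controls. Without control replicate 3 the first count was 5. Unc5d, a netrin receptor gene of the subventricular zone, fell (−1.47 and −2.02). Slc17a6, a vesicular glutamate transporter gene, fell (−0.43 and −1.23) and was higher in the BAF155 cKO than in the Pax6-labelled group by 0.80 (adjusted p = 5.04e-05).

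Of 10 pan-neuronal genes, edgeR called 0 in the BAF155 cKO, where 2 had an unadjusted p under 0.05 and DESeq2 and limma-voom each called 0. The other edgeR settings and tools called 0 to 5 of them lower, 1 against same-sex controls. Dcx had −0.28 (adjusted p = 0.158) and Tubb3 −0.22 (adjusted p = 0.231). Dcx was called with sex as a covariate and with BAF155 cKO replicates 1 and 4 alone (adjusted p from 0.0183 to 0.0328). Tubb3 was called with replicates 1 and 4 alone (adjusted p = 0.0182). In the Pax6-labelled group 1 rose, Stmn2 (0.42), and 4 fell, among them Rbfox3 (−0.64, adjusted p = 0.000664) and Syt1 (−0.38). The call of Stmn2 ended without control replicate 3 or 4 or without replicate 2 or 4 labelled Pax6 cKO, that of Syt1 without control replicate 4, and 1 pan-neuronal gene was called lower without control replicate 4. The count of lower genes was 2 without control replicate 3 or without replicate 1 or 3 labelled Pax6 cKO. Against same-sex controls 0 rose and 2 fell, and the call of Stmn2 ended. Of 9 radial glia genes, 5 fell in the BAF155 cKO, among them Slc1a3 (−1.01) and Vim (−0.81), and 3 did without BAF155 cKO replicate 1 or 3 or control replicate 3 or 4. Vim overlapped control in the BAF155 cKO. Its call there ended with the libraries of lane 1 alone and with replicates 2 and 3 alone (adjusted p from 0.120 to 0.163). Of the same 9, 7 fell in the Pax6-labelled group, among them Nes (−0.87) and Vim (−1.06), and Fabp7 rose (0.48), a call that ended against same-sex controls.

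Of 10 regulators of the dorsal telencephalon, 6 fell and Pax6 rose in the BAF155 cKO, and 8 fell and Pax6 rose in the Pax6-labelled group, with medians of −0.72 and −0.85. Dmrta1, an activator of Neurog2 in the mouse cortex, fell (−2.90 and −3.62). Emx1 fell in the BAF155 cKO (−0.98) and in the Pax6-labelled group (−1.36), as did Nr2e1 (−0.71, adjusted p = 0.0268, and −1.39, adjusted p = 0.000179). The call of Emx1 in the BAF155 cKO ended with its libraries of lane 1 alone and with its replicates 2 and 3 alone (adjusted p from 0.0995 to 0.127). The call of Nr2e1 in the BAF155 cKO ended without its replicate 1, 3 or 4 or control replicate 3 or 4 (adjusted p from 0.0553 to 0.102). Only 2 fell in the BAF155 cKO when replicate 3 or 4 or control replicate 3 or 4 was left out, and 3 without replicate 1; without control replicate 3, 5 fell in the Pax6-labelled group. Against same-sex controls 7 fell in the BAF155 cKO, and 5 fell and 2 rose in the Pax6-labelled group.

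Most listed genes of the ventral, GABAergic programme were higher beside the lower proneural genes. Of 10, 7 rose in the BAF155 cKO and 8 in the Pax6-labelled group, with medians of 0.78 and 0.96, and 6 and 6 rose against same-sex controls. Dlx1 rose by 1.03 and 1.42 and Gad1, which makes the transmitter GABA, by 1.19 and 1.28 on the log2 scale. Lhx6 was not called in either group (−0.02, adjusted p = 0.871, and 0.05, adjusted p = 0.686). Nor was Nkx2-1 (−0.65, adjusted p = 0.621, and 0.07, adjusted p = 0.957). The summed level of the list was 571 to 830 CPM in control, 1135 to 1276 CPM in the BAF155 cKO and 1331 to 1446 CPM in the Pax6-labelled group. The part of ventral tissue in the lower proneural levels was not tested. Of 12 other neural bHLH genes 7 passed the filter, of which 4 rose in the BAF155 cKO, and 5 rose and Nhlh1 fell in the Pax6-labelled group (medians 0.46 and 0.48). Olig2 rose by 0.94 and 0.72, and Nhlh2 by 0.46 and 0.48. Olig3 rose from 0.0476 ± 0.0549 CPM in control to 0.841 ± 0.356 CPM in the BAF155 cKO (SD, n = 4). Against same-sex controls 2 and 3 of the other neural bHLH genes rose, and 2 rose in the Pax6-labelled group without control replicate 1 or 3 or without replicate 2 of that group.

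The genes whose levels followed a member most closely were ranked by Pearson's r of log2 CPM over the 12 libraries among 13080 genes. The libraries share their groups, so these values describe the pattern over groups and carry no test. For Neurog2 the closest was Tfap2c (r = 0.996), which encodes a transcription factor of the AP-2 family, at 38.9, 16.1 and 9.39 CPM in control, BAF155 cKO and the Pax6-labelled group. Prex1 (r = 0.991) and Ppp2r1b (r = 0.987) came next. For Neurog1 they were Notch3 (r = 0.972), Fat1 (r = 0.965) and Psd3 (r = 0.965). For Neurod4 they were Heg1 (r = 0.996), at 103, 34.1 and 24.1 CPM, Tmem132b (r = 0.992) and Unc5d (r = 0.992).

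For Neurod1 the closest were Nek6 (r = 0.993), at 95.7, 55.5 and 48.4 CPM, Napepld (r = 0.989) and Garem1 (r = 0.988). For Neurod2 they were Pcnx (r = 0.983), Kat2a (r = 0.981) and Nos1 (r = 0.979). For Neurod6 they were the neuronal repressor gene Zbtb18 (r = 0.988), at 1162, 791 and 802 CPM, Fam49a (r = 0.987) and Ust (r = 0.978). Among the members themselves r over all libraries ran from 0.635 for Neurog1 and Neurod6 to 0.973 for Neurog2 and Neurod4. After the group means were taken out it was highest for Neurog2 and Neurod1 (r = 0.927) and was 0.413 for Neurog2 and Neurod4, both over the 12 libraries.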

How the data were processed

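The values used were raw read counts per gene, deposited by the authors in 1 table per library as whole numbers without a header. RNeasy columns gave the RNA and the TruSeq v2 kit the libraries, per the labels. The submitters' processing notes name mm10. Which aligner, counting program and annotation were used is not given in the sources here. Of 48709 identifiers 48349 matched GENCODE M21, used for symbols, positions and exon lengths; the other 360 held at most 0.0397% of a library's reads. Groups and replicate numbers came from the sample titles, lanes from the names of the deposited tables and sex from Xist, at a threshold of 100.0 CPM.

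Counts were analysed with edgeR 4.0.16 in R 4.3.3: filterByExpr, TMM scaling and a robust quasi-likelihood fit of all 12 libraries with 1 coefficient per group. p-values were adjusted by Benjamini-Hochberg over all tested genes, and every adjusted p for a gene in the text is from that test unless another tool is named. CPM values use TMM-scaled library sizes, and the SE is |log2 fold change| over the root of F. The fit was tested on simulated data. Promoter windows are RefSeq sequences (GRCm38.p6). The limit set by a count of 0 uses 3 counts and covers counting error only.

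The members, lists, tests and alternatives were chosen with earlier results of these data known. Genes named beside the members are Smarcc1, Pax6, Eomes, the 2 called genes of smallest adjusted p per list, direction and comparison (or, with no call, the 2 most abundant), and the 3 genes most like each member among those with a mean of at least 1 CPM in a group; some genes that this rule names are not reported here. Tcf4 and Emx1 in the Pax6-labelled group, and Hes1 and Nr2e1 in the BAF155 cKO, were added after their values were seen. So were Hes6, Lhx6, Nkx2-1, the markers of other regions and the markers of cortex. Alternatives were DESeq2 1.42.0, RLE size factors, limma-voom (limma 3.58.1), a filter of 1 CPM in 4 libraries, no filter, only the 8 libraries compared, replicate blocks, sex as a covariate, same-sex controls, lanes and leaving out each library. The BAF155 cKO pairs 2 and 3, and 1 and 4, were added after seeing the data.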

Additional observations from a re-analysis of the deposited data

Results flagged for a closer look

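Among the 6 proneural genes, 3 differed in the test of the direct difference between the BAF155 cKO and the libraries labelled Pax6 cKO, whose Pax6 level goes against their label: Neurog1 by 2.75, Neurog2 by 1.11 and Neurod4 by 1.10 on the log2 scale (edgeR adjusted p of 0.0192, 0.00608 and 0.00695). Each was higher in 4 of 4 BAF155 cKO libraries than in all libraries labelled Pax6 cKO, as were 7.5% of all genes. Of all genes, 2.3% were called higher. These groups differ in sex and partly in lane, and sex and group cannot be told apart in this contrast. In the 18 groups of 4 libraries that the 6 genes give, no single library stood apart by Dixon's test, a test in which chance alone marks about 1 group in 20.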

How the results depend on the processing

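All 6 members stayed lower than control in every setting tried, and the count called fell only with the BAF155 cKO libraries of lane 1 alone or where Neurog1 was lost. The numbers of genes called moved more. For the BAF155 cKO (2246) they were 1035 with only the 8 libraries compared, 4534 with sex as a covariate, 682 with lane 1 alone (3 members), 653 with replicates 2 and 3, 5534 with replicates 1 and 4, and 1001 to 4073 with 1 library left out (6 to 6 members), with 4073 without BAF155 cKO replicate 2, 1324 and 1001 without its replicates 1 and 4, and 1164 and 1287 without control replicates 3 and 4. For the Pax6-labelled group (5866) they were 1772 with sex as a covariate, 3490 with same-sex controls and 3825 (without control replicate 3) to 6601 with 1 library left out. In the direct comparison (711, 3 members higher) they were 1339 with DESeq2, 13 with sex as a covariate (0 members), 470 with lane 1, 209 with lane 3 (0 members) and 307 to 786 with 1 library left out (2 to 4 members), under 470 without any Pax6-labelled library or BAF155 cKO replicate 1, 2 or 3; 1 member was called with no filter and 1 with replicates 1 and 4. The causes were not tested.

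Same-numbered libraries had deviations correlated at −0.23 to 0.38. Replicate 1 correlated best with its own number in all 3 comparisons and replicate 2 in the direct one, a hint from the data, but some pairs were negative in each comparison and no label ties the numbers, so they were not taken as pairs. With the replicate number as a block 2245, 5689 and 497 genes were called, and 6, 6 and 3 members.

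Signs turned only in direct differences, or ratio differences, that were not called. Neurod6 had −0.0183 with limma-voom, −0.0140 with no filter, −0.00595 with the block, −0.12 with sex as a covariate, −0.16 with lane 3 and −0.13 with replicates 1 and 4. Neurod1 had −0.35 with sex as a covariate, −0.0565 with lane 3 and −0.0048 with replicates 1 and 4. With sex as a covariate Eomes had −0.26 and Tcf12 −0.16; with lane 3 Eomes had −0.0326. Tcf4 had 0.19 with lane 1 and 0.10 with replicates 2 and 3. The direct Neurod4 to Neurog2 difference was −0.0533 with 5 counts added, and the Eomes to Neurog2 difference in the BAF155 cKO 0.0397 with same-sex controls. With 1 library left out, direct differences ran from −0.0891 to 0.104 for Neurod6 and −0.165 to 0.0774 for Tcf4. In the same way the direct Neurod4 to Neurog2 difference ran from −0.102 to 0.178, and in the BAF155 cKO that of Neurod6 to Neurod2 from −0.0563 to 0.0779 and that of Eomes to Neurog2 from −0.0331 to 0.0152. At 0 to 11 reads of Neurog1 per Pax6-labelled library, depth limits the size of its change.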
